A study of Mus musculus with 6 samples.

Results

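The genes of the colony-stimulating factor (CSF) receptors and of the ligand CSF1 were followed in RNA-seq of cell-sorted peritoneal macrophages (PMs). The 6 genes, Csf1, Csf1r, Csf2ra, Csf2rb, Csf2rb2 and Csf3r, were chosen by symbol among 32879 genes with a RefSeq record in the count tables, and all 6 were measured above the low-count filter. PMs came from 3 control mice, which were non-lupus-susceptible F1 offspring of New Zealand white and BALB/c parents aged 33, 33 and 30 weeks, and from 3 diseased-BWF1 mice, which were F1 offspring of New Zealand black and New Zealand white parents aged 31, 31 and 34 weeks, labelled Lupic. The methods of the study define disease by high titers of antibodies against double-stranded DNA and severe proteinuria, and describe the sorted cells as CD11b+ F4/80+. Because the groups have different parents, the effects of strain and of disease cannot be told apart. Each mouse gave 1 library, with 3629901 to 5003360 counts in total, of which 89.1% to 93% fell on genes.

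CSF1, also called M-CSF, binds CSF1R, a receptor tyrosine kinase that keeps most tissue macrophages alive. GM-CSF (CSF2) binds an alpha chain, CSF2RA, which pairs with the common beta chain CSF2RB to activate JAK2 and STAT5, and the same beta chain serves the receptors of IL-3 and IL-5. Mice carry an additional beta chain gene, Csf2rb2, whose product serves the IL-3 receptor. CSF3R is the receptor of G-CSF (CSF3) and is best known from neutrophils.

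The sorted cells carried the macrophage markers of the gate. Adgre1, which encodes F4/80, had 8296 ± 241 normalized counts in the control mice (SD, n = 3) and 7370 ± 348 in the diseased-BWF1 mice, and Itgam, which encodes CD11b, had 24218 ± 3083 and 26562 ± 1808. Normalized counts are gene sums divided by DESeq2 size factors, which lay between 0.871 and 1.21. The marker genes of neutrophils Ly6g, Mpo and Retnlg, of eosinophils Prg2 and Epx, of mast cells Mcpt4, Tpsb2 and Fcer1a and of mesothelium Msln and Krt8 had 0 counts in every library, where a count of 0 allows up to 0.652 to 0.888 CPM (3 counts, counting error only). The 5 B cell markers summed to 0.533 to 6.08 CPM over the libraries, the 5 T cell markers to 0 to 3.33 CPM and the 5 dendritic cell markers to 8 to 14.4 CPM. The third control library stood apart. In it, 243 of the 10505 genes tested (2.31%) had less than 0.5 times the normalized count of the lowest other library, against 56 to 132 genes (0.533% to 1.26%) in each of the other libraries.

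Per transcript length, Csf1r and Csf2ra had the highest levels of the 6 genes and Csf1 the lowest. In RPKM, here counts divided by transcript kilobases and by the library's total on genes, the mean level over the 6 mice was 176 for Csf1r (range 73.8 to 236), 165 for Csf2ra (155 to 178), 85.7 for Csf3r (58.1 to 96.1), 48.7 for Csf2rb (36.2 to 57.2), 12.8 for Csf2rb2 (7.37 to 17.2) and 2.96 for Csf1 (1.47 to 4.32). Csf1r lay above Csf2ra in 5 of 6 mice and their ranges overlapped, so the order of these neighbours was not separated from the spread between mice. With the lengths used, each later neighbour was separated in 6 of 6 mice, with ranges that did not overlap. Levels between genes rest on the length of the leading curated transcript of each gene, from 1849 bases for Csf2ra to 4764 bases for Csf2rb. For Csf3r that transcript, of 3481 bases, held 3.58% of the gene's counts over all libraries. The lowest Csf3r level, 58.1, was close to the highest Csf2rb level, 57.2, so the separation of these ranges depends on that length.

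**Figure D1:**
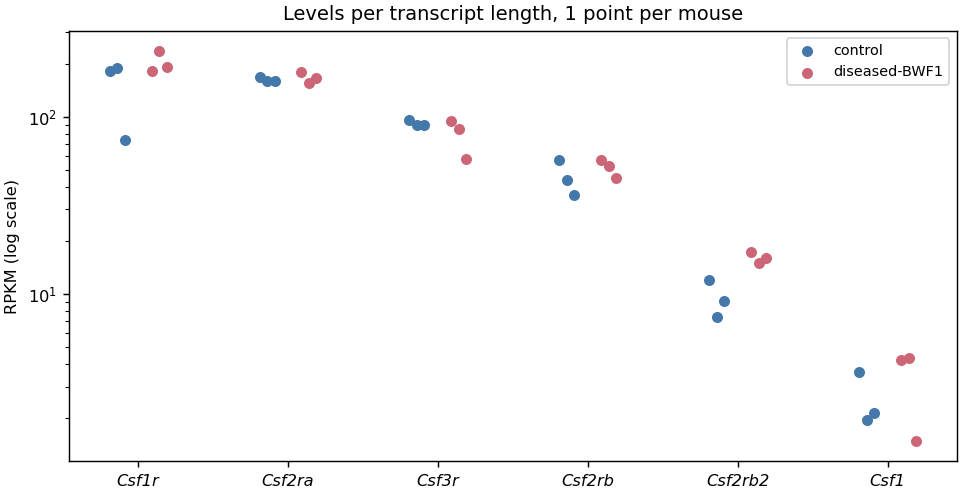
Level of each gene in RPKM (counts scaled to transcript length and library total, vertical axis, log scale), with 1 point per mouse, control mice in blue and diseased-BWF1 mice in red. Csf1r and Csf2ra overlap at the top, Csf1 lies at 1.47 to 4.32, and the diseased-BWF1 points of Csf2rb2 all lie above its control points.

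None of the 6 genes was called different between diseased-BWF1 and control mice. Calls required both a fold change of 1.5 or more and an adjusted p below 0.05 (edgeR's quasi-likelihood test, Benjamini-Hochberg adjustment over all genes tested). Over all 10505 genes tested, calls of a higher level in the diseased-BWF1 mice made up 0.4% and of a lower level 0.819%, together 1.22%. By the same edgeR test, 1 member, Csf2rb2, had an unadjusted p under 0.05, as had 1385 of all genes tested, and 0 of the 6 were called with DESeq2, which called 3.05% of its genes. For the 6 members the median log2 fold change was 0.23, beside 0.01 for all genes tested. Csf2rb2 was also the only member whose groups did not overlap, with every diseased-BWF1 mouse above every control mouse. Of all genes tested, 9.59% showed that arrangement and 11.2% the opposite arrangement. With 3 mice against 3, the exact two-sided permutation test used for single genes cannot give a p below 0.1. The edgeR p-values weigh a difference between groups against the spread between these mice, as estimated with information from all genes tested.

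**Figure D2:**
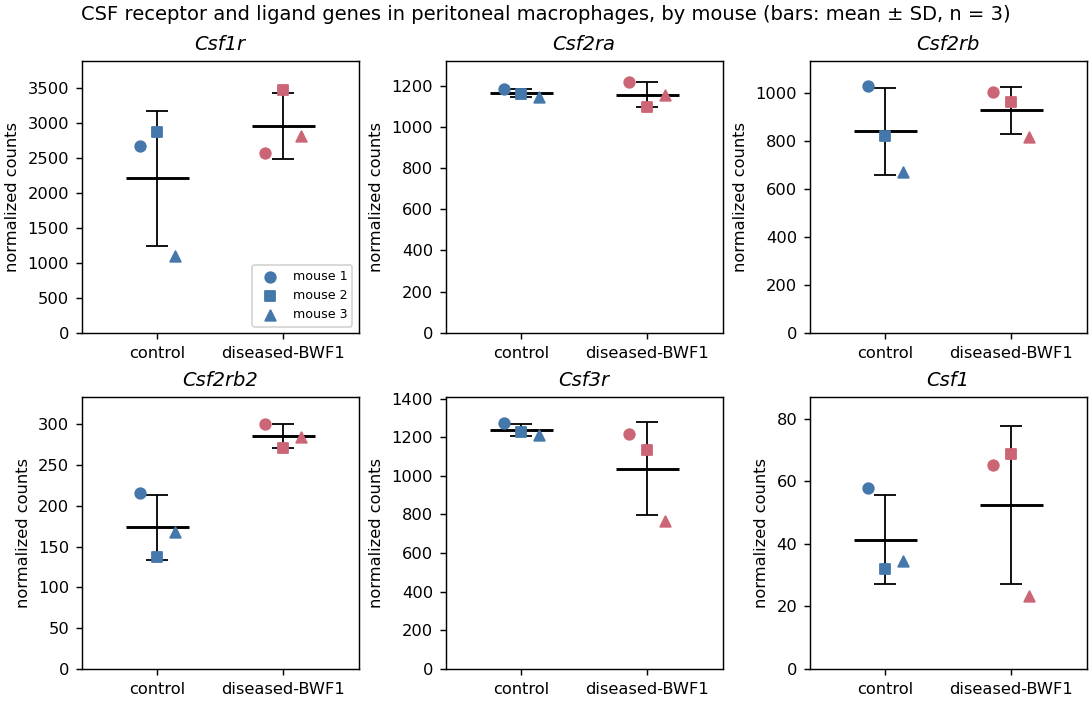
Normalized counts (vertical axes, starting at 0) of the 6 genes in control mice (blue) and diseased-BWF1 mice (red). The shape of a point gives the mouse number within its group, long lines are means and bars are SDs (n = 3). Csf2rb2 has groups that do not overlap, Csf1r has 1 low control mouse, and Csf2ra is nearly level.

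Positions of genes are from a RefSeq gene table and positions of sequence stretches from GENCODE vM21, all on GRCm38. The ligand gene Csf1 lies on chromosome 3 from 107741048 to 107760469. Its normalized counts were 57.9, 31.9 and 34.5 in control mice against 65.2, 68.9 and 23.2 in the diseased-BWF1 mice. A pair of diseased-BWF1 mice lay above all control mice and the third lay below them, so the groups overlapped. The log2 fold change came to 0.33 (SE 0.43, 95% interval -0.69 to 1.35, adjusted p = 0.798, edgeR), which spans a fold of 0.62 to 2.54. Csf1 was the most thinly covered member, with 23 to 70 deposited counts per library. The exact Poisson 95% interval of the lowest count was 14.6 to 34.5 and of the highest 54.6 to 88.4, and these intervals cover counting error only. With single mice left out the log2 fold change lay between 0.09, without the second diseased-BWF1 mouse, and 0.68, without the third.

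Transcripts of the other ligands were close to absent from these libraries. Il34, which encodes the alternative CSF1R ligand, had 1 count in 1 library. Csf2 had 2 counts in a single control library and Csf3 had 1 count in a single diseased-BWF1 library. Il3 and Il5, the ligands of the IL-3 and IL-5 receptors, had 0 counts in all 6 libraries. These genes did not reach the filter, and no fold is given for them.

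Csf1r, the CSF1 receptor gene, lies on chromosome 18 from 61105572 to 61131139. Its normalized counts were 2669, 2870 and 1107 in control mice against 2577, 3483 and 2812 in the diseased-BWF1 mice. The third control mouse was far below the other 5, whose values interleaved between the groups. The means were 2215 ± 965 and 2957 ± 470 (SD, n = 3), a log2 fold change of 0.41 (SE 0.34, 95% interval -0.38 to 1.21, adjusted p = 0.663, edgeR). Without the third control mouse the log2 fold change was 0.09, and without any other single mouse 0.28 to 0.65, so the size of the difference rested on that library. Csf1r was at 0.43 times the lowest other library there. Akt1, which encodes a kinase downstream of CSF1R and followed Csf1r most closely over the libraries, was also low in it. Akt1 had 476, 551 and 83.8 normalized counts in control mice against 469, 886 and 535 in the diseased-BWF1 mice. Other CSF1R signalling genes went both ways in the third control library. In control mice Cbl had 1147, 1219 and 495 normalized counts, Cblb 185, 208 and 485, and Pik3r5 540, 495 and 1283. The part of that library in the spread of Csf1r was not tested beyond leaving it out. All counts of Csf1r fell on 1 curated record, and any record of it that the gene table did not hold was not used here.

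The other receptors of the structural class of CSF1R were near the limit of detection. Kit had 0 counts in all libraries, Pdgfra at most 1, Pdgfrb at most 7 and Flt3 at most 12 in any library, and none passed the filter.

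Csf2ra, which encodes the ligand-specific alpha chain of the GM-CSF receptor, was the steadiest member. The gene is at 61217191 to 61228461 on chromosome 19. Its normalized counts were 1184, 1158 and 1146 in control mice against 1215, 1096 and 1156 in the diseased-BWF1 mice. The groups interleaved within a narrow band, and the coefficient of variation was 1.67% in control mice against 5.17% in the diseased-BWF1 mice. The log2 fold change came to -0.01 (SE 0.12, 95% interval -0.29 to 0.26, adjusted p = 0.982, edgeR), which bounds the fold between 0.819 and 1.2. The curated record of Csf2ra held 87.5% to 92.3% of its counts in each library.

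Csf2rb, the common beta chain gene, lies on chromosome 15 from 78325800 to 78351001 on the forward strand. Its normalized counts were 1030, 820 and 669 in control mice against 1004, 963 and 816 in the diseased-BWF1 mice. The highest value was a control mouse and the lowest was also a control mouse, so the diseased-BWF1 values lay inside the control range. The log2 fold change came to 0.14 (SE 0.18, 95% interval -0.29 to 0.57, adjusted p = 0.797, edgeR).

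Csf2rb2, the beta chain gene of the IL-3 receptor, lies 20078 bases away on the reverse strand, from 78282507 to 78305721. Its normalized counts were 216, 137 and 168 in control mice against 300, 271 and 284 in the diseased-BWF1 mice. All 3 diseased-BWF1 mice were above all 3 control mice, and the lowest diseased-BWF1 value exceeded the highest control value by more than the whole diseased-BWF1 range. The means were 173 ± 39.9 and 285 ± 14.4 (SD, n = 3), a log2 fold change of 0.71 (SE 0.18, 95% interval 0.30 to 1.13) or a fold of 1.64 (95% interval 1.23 to 2.18). The unadjusted p was 0.00458 and the adjusted p 0.133 with edgeR, and 0.00171 and 0.0534 with DESeq2, so the difference did not pass the threshold with either tool. The exact two-sided permutation p was 0.1, the smallest that 3 mice against 3 can give. By p, Csf2rb2 ranked 361 of the 10505 genes tested. Its deposited counts were 133 to 318 per library.

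The sequences of both beta chain genes bear on how far their counts are separate. Their coding sequences, of 2691 bases for Csf2rb and 2637 for Csf2rb2, were 95.2% identical over 2631 aligned bases, with 126 differences. Of the 75-base sequences in annotated transcripts, 7.15% of those of Csf2rb occurred in Csf2rb2 and 10.6% of those of Csf2rb2 in Csf2rb, while Csf1r, Csf2ra and Csf1 shared 0 with any gene and Csf3r shared 2.95%. The coding sequences held 8 identical runs of at least 75 bases, 1005 bases in all, and the longest was 242 bases. It is shown because a 75-base read from it has no unique origin by itself. The study sequenced 75-base reads in pairs, and the mate of such a read may lie outside the run. It lies in exon 14 of both genes, inside the coding part, at chr15:78348577-78348818 on the forward strand in Csf2rb and chr15:78284630-78284871 on the reverse strand in Csf2rb2.
shared run: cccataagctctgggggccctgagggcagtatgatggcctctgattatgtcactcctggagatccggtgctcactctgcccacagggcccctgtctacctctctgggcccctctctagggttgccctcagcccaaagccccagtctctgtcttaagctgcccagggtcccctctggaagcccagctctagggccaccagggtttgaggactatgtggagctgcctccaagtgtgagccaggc

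The 75-base stretch of the coding sequences with the most differences, 14, lies in exon 4, at chr15:78338905-78338979 (forward strand) in Csf2rb and chr15:78294352-78294426 (reverse strand) in Csf2rb2. It is shown because reads from it can be assigned, and capitals mark the bases that differ between the genes.
Csf2rb: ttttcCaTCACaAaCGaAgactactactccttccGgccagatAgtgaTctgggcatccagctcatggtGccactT
Csf2rb2: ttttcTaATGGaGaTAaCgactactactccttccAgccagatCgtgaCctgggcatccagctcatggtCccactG
The shared run also holds the annotated microRNA genes Mir7676-2 in Csf2rb and Mir7676-1 in Csf2rb2, both at 0 counts in all libraries.

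Reads of shared sequence may move between these genes in counting, and the part of such reads in the Csf2rb2 values was not tested. When the counts of Csf2rb2 and Csf2rb were summed, the log2 fold change was 0.26 (adjusted p = 0.594, edgeR). Csf2rb2 had 2 curated records. The leading record held 93.7% of the counts and gave a log2 fold change of 0.59 when records were tested singly (adjusted p = 0.673, edgeR), and the other record had 0, 0 and 6 counts in control mice against 48, 35 and 0 in the diseased-BWF1 mice. The neighbouring gene Ncf4, which encodes a subunit of the phagocyte NADPH oxidase, had a log2 fold change of -0.01 (SE 0.21, adjusted p = 0.996, edgeR). Within 100 kb of the beta chain genes, Mpst had -0.21 (adjusted p = 0.72, edgeR). Kctd17, with 3 to 14 counts per library, and Gm41355, with 1 to 12, were below the filter. In both, every diseased-BWF1 mouse was above every control mouse. The same held for 9.59% of all genes tested, which passed the filter. The share among genes below the filter was not computed.

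The sum of the 7 monocyte genes was 42032 to 64860 CPM in control mice against 65809 to 70744 CPM in the diseased-BWF1 mice, most of it from Fn1, which encodes fibronectin. The gap between the groups was narrow and held on the CPM scale, whereas the normalized counts of Fn1 overlapped between the groups, the highest control value being 253958 and the lowest diseased-BWF1 value 248453. The defining genes Ly6c2, Chil3 and Cx3cr1 had at most 10 counts in every library. The 9 peritoneal macrophage genes summed to 36949 to 49332 CPM in control mice against 31696 to 37961 CPM in the diseased-BWF1 mice, most of it from Lyz2. Single genes of this list went both ways, 4 with a log2 fold change above 0 and 5 below. They ranged from -0.55 for Icam2 to 1.14 for Fcgr1, and Cd14 was at 0.88. The part of these levels in the values of Csf2rb2 was not tested. In sorted bulk RNA, fewer cells of a type and less RNA per cell cannot be told apart.

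Of the alpha chains that pair with the beta chains, Il3ra, for IL-3, had 67.6 ± 29 normalized counts in control mice against 75.3 ± 9.62 in the diseased-BWF1 mice (log2 fold change 0.16, SE 0.30, adjusted p = 0.861, edgeR). Il5ra had 1 to 10 counts per library and was below the filter.

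Csf3r, the G-CSF receptor gene, lies on chromosome 4 from 126023441 to 126044975. Its normalized counts were 1275, 1227 and 1213 in control mice against 1216, 1132 and 764 in the diseased-BWF1 mice. The control mice were close together, a pair of diseased-BWF1 mice lay at or just below them, and the third diseased-BWF1 mouse was well below. The means were 1238 ± 32.6 and 1038 ± 240 (SD, n = 3), a log2 fold change of -0.26 (SE 0.19, 95% interval -0.70 to 0.19, adjusted p = 0.625, edgeR). Without the third diseased-BWF1 mouse it was -0.08. The summed level of 12 neutrophil marker genes was 12.6 to 24.2 CPM in control mice against 10.9 to 33.6 CPM in the diseased-BWF1 mice, and 9 of the 12 had at most 10 counts in every library.

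The counts of Csf3r were spread over more records than those of any other member. It had 19 RefSeq records, of which 18 had counts and 6 had counts in every library, and most were computer-predicted. Its curated mRNA records held 3.58% of its counts over all libraries, from 0% to 6.17% in single libraries, and on them alone the log2 fold change was 0.29. The leading record, a predicted transcript, held 31.7%, 29.2% and 23.2% of the gene's counts in control mice against 19.8%, 14.8% and 18.6% in the diseased-BWF1 mice. Each control share lay above each diseased-BWF1 share. Tested as a record, it had a log2 fold change of -0.92 (SE 0.26, adjusted p = 0.461, edgeR). How many other records had shares so arranged was not computed, and nothing is read from this arrangement. Counts of other predicted Csf3r records jumped between mice of a group. XM_006502719.3 had 1, 0 and 211 counts in control mice, and XM_011240423.2 had 143, 0 and 69 in the diseased-BWF1 mice. Of the 19 member records that could be tested, 0 were called, beside 13 of all 20332 records tested.

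**Figure D3:**
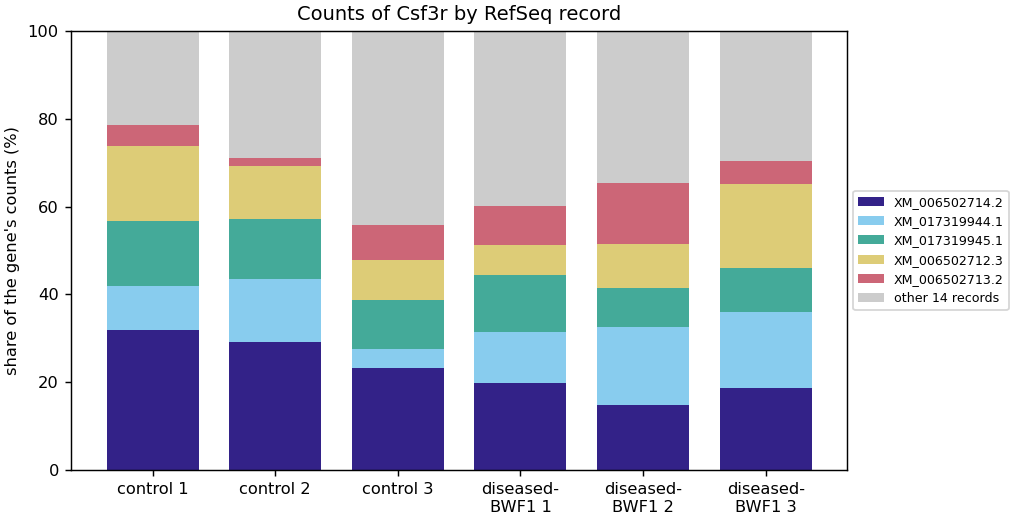
Share of the counts of Csf3r (vertical axis, percent) on its 5 leading RefSeq records and on the other 14 together, with 1 bar per mouse. The leading record takes 23.2% to 31.7% in control mice against 14.8% to 19.8% in the diseased-BWF1 mice. How many other records have shares so arranged was not computed.

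Ratios between members within a library do not depend on library scaling. They were added after the values of the members had been seen. Of the 15 pairs, 5 had groups that did not overlap, of which 3 involved Csf2rb2 and 3 involved Csf3r. Of single genes tested, 9.59% and 11.2% had such groups in each direction, the share over other gene pairs was not computed, and nothing is read from the count of pairs. The counts of Csf2rb2 were 21%, 16.7% and 25% of those of Csf2rb in control mice against 29.9%, 28.2% and 34.9% in the diseased-BWF1 mice. They were 18.2%, 11.8% and 14.6% of those of Csf2ra in control mice against 24.7%, 24.8% and 24.6% in the diseased-BWF1 mice. These 3 diseased-BWF1 ratios lay closer together than the counting error of Csf2rb2 alone, whose exact Poisson 95% interval at 268 counts was 237 to 302, and nothing is read from their closeness. Against Csf3r, the share of Csf2rb2 was 16.9%, 11.1% and 13.8% in control mice against 24.7%, 24% and 37.2% in the diseased-BWF1 mice, a difference of 1.03 on the log2 scale. Each of the 5 pairs had an exact two-sided permutation p of 0.1 and an adjusted p of 0.3 over the 15 pairs. A p of 0.1 is the smallest that 3 mice against 3 can give. No ratio could therefore have passed the threshold, and the test decides nothing about the ratios. Pairs with Csf2rb2 share its counts and are not separate evidence.

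**Figure D4:**
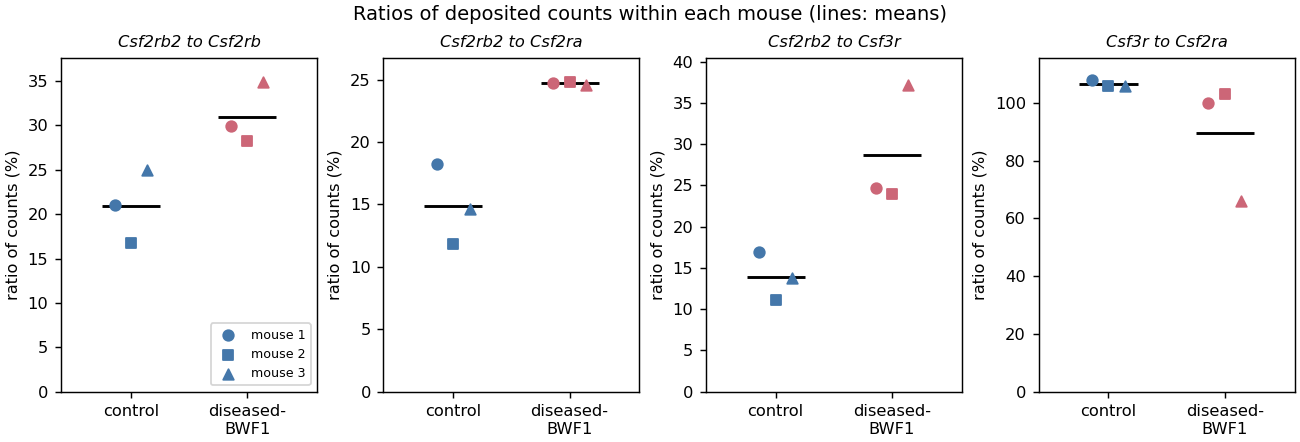
Ratio of deposited counts between pairs of members within each mouse (vertical axes, percent, starting at 0), control mice in blue and diseased-BWF1 mice in red, with lines at the means. The 4 pairs were chosen after their values were seen; the diseased-BWF1 points lie above the control points in the 3 pairs with Csf2rb2 on top and below them for Csf3r to Csf2ra.

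Genes that act with these receptors were taken from lists of ligands, receptor chains, signalling proteins, transcription factors and proliferation genes. Of 71 listed genes, 57 passed the filter, and 0 were called higher or lower with edgeR, beside 1.22% of all genes. With DESeq2, 1 was called. An unadjusted p under 0.05 (edgeR) was found for 6 of the 57, beside 1385 of all 10505 genes tested. The groups did not overlap for 3 genes higher and 4 lower in the diseased-BWF1 mice, beside 9.59% and 11.2% of all genes tested, and the median log2 fold change was 0.09, beside 0.01 for all genes tested.

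Among 24 genes of CSF1R signalling, all of which passed the filter, 14 had a log2 fold change above 0 and 10 below, with a median of 0.09. Mapk3, which encodes ERK1, had 349 ± 32.5 normalized counts in control mice against 289 ± 11.5 in the diseased-BWF1 mice (SD, n = 3, log2 fold change -0.28, adjusted p = 0.394, edgeR). Of the 14 genes of beta chain and JAK-STAT signalling, 11 passed the filter, with a median log2 fold change of 0.09. Pim1, a kinase gene that STAT5 induces, had 149 ± 16 and 252 ± 64.4 normalized counts (log2 fold change 0.75, adjusted p = 0.157, edgeR), with groups that did not overlap. Mcl1, which encodes a survival protein of the BCL2 family, had 2710 ± 513 and 3484 ± 492 (log2 fold change 0.36, adjusted p = 0.481, edgeR).

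Among 14 transcription factors of myeloid cells, 13 passed the filter, with a median log2 fold change of 0.17. Maf, a factor that restrains macrophage self-renewal, had 1245 ± 287 normalized counts in control mice against 651 ± 235 in the diseased-BWF1 mice (log2 fold change -0.94). It was not called with edgeR (adjusted p = 0.212) and was the gene called with DESeq2 (adjusted p = 0.045). Klf4 had 444 ± 31 and 699 ± 180 (log2 fold change 0.65, adjusted p = 0.224, edgeR). Spi1, which encodes PU.1, an activator of the CSF receptor genes, had 715 ± 37.5 and 719 ± 56.8, a log2 fold change of 0.01. All 8 proliferation genes that CSF1 is known to raise passed the filter, 4 above and 4 below 0, with a median of 0.01. Those with the smallest p were Cdk4, with 255 ± 35.6 and 193 ± 10.5 (log2 fold change -0.41, adjusted p = 0.28, edgeR), and Ccnd2, with 23.5 ± 7.54 and 66.9 ± 43.6 (log2 fold change 1.5, adjusted p = 0.295, edgeR).

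**Figure D5:**
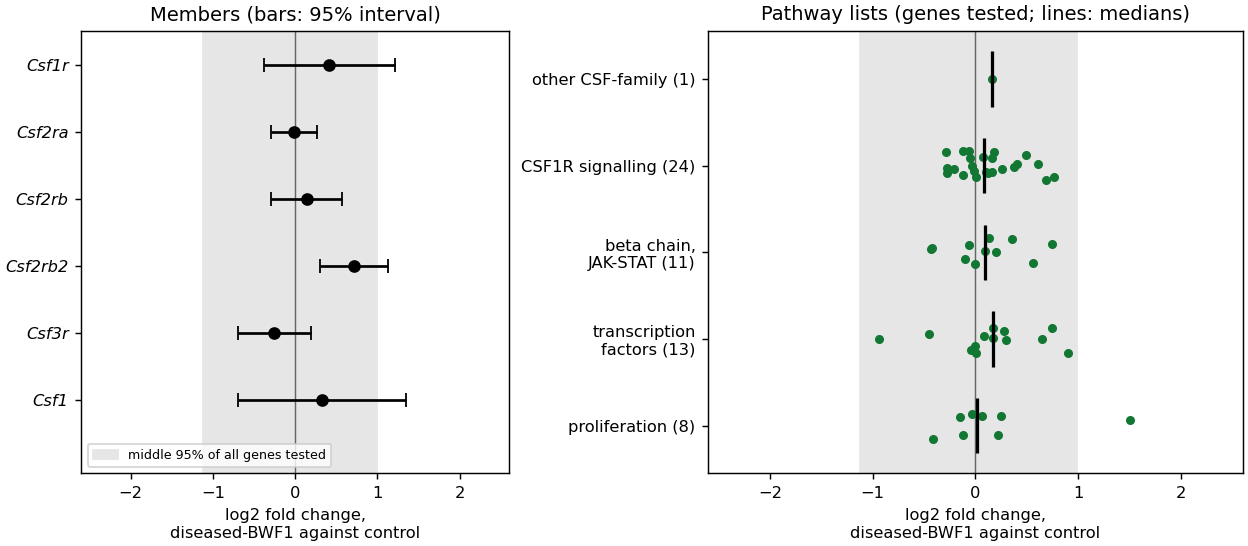
Log2 fold change of diseased-BWF1 against control mice (horizontal axes) for the 6 members with 95% intervals, left, and for tested genes of the pathway lists with their medians, right. The grey band spans -1.12 to 0.99, the middle 95% of all genes tested, and the interval of Csf2rb2 is the only member interval that leaves out 0.

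The genes whose levels followed each member most closely over the 6 libraries were found by Pearson's r of log2 CPM among 4730 genes with a mean log2 CPM of at least 5 (4731 for Csf1). They are a description, since libraries share depth and group. For Csf1r they were Akt1 (r = 0.999) and Rock2 (0.996), and 238 genes reached an r of 0.9, the most of any member. For Csf2rb2 they were Rara (0.994) and Ythdf1 (0.990), with 58 genes at 0.9 or more. Csf2rb went with Pml (0.976) and Synj2 (0.971), Csf2ra with Jpt2 (0.981) and Trpc4ap (0.976), Csf3r with Dhx38 (0.984) and Pofut2 (0.973), and Csf1 with Plekhg3 (0.960) and Slfn1 (0.942). For Csf1r and Akt1 the third control library holds the lowest of the 6 values by a wide margin.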

How the data were processed

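RNA-seq of cell-sorted PMs was analysed in 6 mice. The authors deposited whole-number estimated counts for 107193 RefSeq records per mouse, without normalization, and the submitters' processing notes name Salmon 0.8.0, DESeq2 and GRCm38.p6 without their roles. Counts of records matched to a RefSeq gene table were summed per symbol, and the 20727 unmatched records were left out. Genes were filtered with filterByExpr, normalized by TMM and tested with edgeR 4.0.16 (R 4.3.3, quasi-likelihood, common dispersion 0.0543), without covariates. Normalized counts used size factors of DESeq2 1.42.0. No libraries were duplicates (chi-square per gene at least 9.57). The members and the gene lists were chosen with earlier results of these data known. Named genes were all members, every called gene of a list or otherwise the genes with the 2 smallest p, genes near 0, and 2 genes of the closest pattern per member. Adgre1, Itgam, Ncf4 and other neighbours of the beta chain genes, Akt1, Spi1 and other markers were added for checks. A few genes under this rule are left unreported. Code was tested on simulated data. Alternatives were DESeq2, RLE normalization, other filters, a replicate block, age as a covariate, curated or summed records, single records and each mouse left out.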

Additional observations from a re-analysis of the deposited data

How the results depend on the processing

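Over 15 alternative settings, 88 of 90 values of the members kept their direction and stayed on the same side of the threshold, and 0 were called. The exceptions were Csf3r on curated mRNA records alone (log2 fold change 0.29) and Csf2ra without the second diseased-BWF1 mouse (0.03, with a range of -0.05 to 0.03 over mice left out). Csf2rb2 ranged from 0.26 when summed with Csf2rb to 0.90, with adjusted p-values of 0.0534 to 0.673, and Csf1r from 0.09 to 0.65. Counts of called genes moved more, from 42 higher and 86 lower to 128 and 242 with DESeq2, 89 and 170 without a filter, 27 and 57 with at least 10 counts in every library, 9 and 7 on curated records, and 53 lower with age as a covariate. With 1 mouse left out they were 11 to 22 higher and 10 to 29 lower, with fewer samples in the fit. DESeq2 called 1 gene of the pathway lists, Maf. The replicate numbers name different animals and their deviations did not pair (correlations 0.117, 0.006 and 0.157), and a replicate block gave 18 higher and 20 lower. The cause of the other shifts was not tested. Depth limits Csf1 most.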
